A study of Homo sapiens with 12 samples.

Results

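The NO fraction, RNA from isolated nucleoli, was compared with the CN fraction, which pools cytoplasmic and remaining nuclear RNA, in HEK UL1 KO cells. All genes of the joined count tables were used. HEK UL1 KO is a HEK293T line in which HNRNPUL1 was disrupted with CRISPR-Cas9. HEK293T cells, an immortalised human embryonic kidney line, served unedited as HEK WT. The comparison rests on 6 of the 12 libraries of the study, 3 of NO and 3 of CN, and the 6 HEK WT libraries, also 3 of each fraction, were used beside them. The labels give the same growth medium for all groups and no agent was added per the labels. Total RNA was sequenced without removal of rRNA, and the design text calls the replicates biological. Whether the knockout line is a single clone is not given in the sources used here.

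The nucleolus forms around the rRNA genes, where RNA polymerase I makes a long precursor that is cut and modified to 18S, 5.8S and 28S rRNA. Small nucleolar RNAs (snoRNAs) guide this work. Box C/D snoRNAs direct methylation of ribose, box H/ACA snoRNAs direct pseudouridylation, and a few of both kinds, such as U3 and U8, are needed for cleavage of the precursor. Most human snoRNAs are cut from introns of host genes, while U3 and U8 are transcribed from genes of their own. Related RNAs work elsewhere: scaRNAs in Cajal bodies, spliceosomal snRNAs in the nucleoplasm, and Y RNAs, tRNAs and 7SL RNA in the cytoplasm.

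Many of the RNAs that differed most between the fractions are short, and the sequences of those that carry the result are shown first, as DNA letters of GRCh38 on the strand of the gene (positions from RefSeq, strand from GENCODE). In the box C/D snoRNAs, capitals mark TGATGA, the letters of box C, and the last CTGA, those of box D. In the H/ACA snoRNA they mark the ACA near the 3′ end, and in the Y RNA the run of T at the end, where RNA polymerase III stops.
U3 (SNORD3A, chr17:19188016-19188232, plus strand): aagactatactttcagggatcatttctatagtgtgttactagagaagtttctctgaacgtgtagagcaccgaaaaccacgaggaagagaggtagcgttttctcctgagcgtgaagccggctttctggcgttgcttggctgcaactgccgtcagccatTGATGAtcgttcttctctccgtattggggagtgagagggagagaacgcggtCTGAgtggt
U8 (SNORD118, chr17:8173452-8173588, minus strand): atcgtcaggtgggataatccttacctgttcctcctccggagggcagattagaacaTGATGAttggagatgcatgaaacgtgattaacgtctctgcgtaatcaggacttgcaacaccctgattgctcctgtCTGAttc
SNORD95 (chr5:181243314-181243376, minus strand): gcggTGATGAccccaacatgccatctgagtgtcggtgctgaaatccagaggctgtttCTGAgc
SNORD42A (chr17:28723431-28723491, plus strand): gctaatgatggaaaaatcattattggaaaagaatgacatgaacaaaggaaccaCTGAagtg
SNORA73B (U17, chr1:28508558-28508762, plus strand): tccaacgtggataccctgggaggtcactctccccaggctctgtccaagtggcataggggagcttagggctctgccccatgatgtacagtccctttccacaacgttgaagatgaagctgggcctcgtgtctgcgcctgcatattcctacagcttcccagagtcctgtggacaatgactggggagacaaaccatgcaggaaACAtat
RNY4 (chr7:148963315-148963410, plus strand): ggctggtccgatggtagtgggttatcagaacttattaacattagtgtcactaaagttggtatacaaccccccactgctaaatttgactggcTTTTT

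Among the box C/D snoRNAs that were higher in NO, 87 of 127 with a known position (68.5%) held TGATGA and a later CTGA in their last 25 bases on either strand, against 263 of 7945 other annotated genes under 300 bases (3.31%). SNORD42A, which was among the RNAs with the largest rise, lacks the TGATGA letters. The box C/D snoRNAs that were not higher in NO held the pair in 8 of 16 cases. For H/ACA, 83 of 96 higher members (86.5%) and 13 of 16 others ended in ACA plus 3 bases, against 6.62% of other short genes. These matches are a description of the letters and were not tested.

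HNRNPUL1 was measured in every library as a check of the labels. In CPM, counts scaled to the size of the library, over all counts it stood at 5.05, 5.15 and 5.3 in CN of HEK UL1 KO against 17.9, 16.1 and 13.7 in CN of HEK WT, and at 5.46, 4.19 and 4.09 in NO against 10.5, 13.4 and 12.9. The genotypes did not overlap in either fraction (exact permutation test, two-sided, smallest p with 3 against 3 = 0.1), and some transcript remained in the knockout. Total counts in the HEK UL1 KO libraries ranged from 54349399 to 69849278 in CN and from 37141666 to 83019079 in NO. The correlation of log2 levels across genes was 0.98 to 0.984 within CN, 0.953 to 0.977 within NO and 0.863 to 0.924 between fractions. In every CN library PTPRC, MYH7 and the other 8 markers of non-kidney cell types had at most 27 counts, and in NO at most 178. The 9 HEK293T markers had 7 to 1655 counts in CN and 9 to 2429 in NO, with CDH2, LIN28B and VIM the highest. The ranges of both marker lists overlap. INA, a HEK293T marker, had 9, 8 and 7 counts in CN, fewer than PTPRC with 27, 21 and 19.

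Of 34468 genes tested with edgeR, 14023 (40.7%) were higher in NO and 12264 (35.6%) were lower, 76.3% in all, and CPM did not overlap between the fractions for 78.1% (41.3% with NO the higher). A call on a single gene is therefore common in this comparison, and a group is read below by its share and its median log2 fold change against these figures. Fold changes are relative to the TMM scaling, under which the median of all genes was 0.03 on the log2 scale. Scaling to total counts instead adds 0.76 to the log2 fold changes and leaves 825 genes lower. Under it, 3 of the 18 lists whose median was negative had a positive median: endoplasmic reticulum mRNAs, nuclear long non-coding RNAs and ZNF genes. CPM below are TMM-scaled.

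rRNA genes took 74.3, 74.3 and 74.8% of all counts in CN but 62.1, 63.9 and 57.2% in NO. The share of snoRNA genes rose from 0.113% ± 0.0144 to 3.01% ± 0.729 (SD, n = 3 each), and U3 genes alone accounted for 0.103% ± 0.0139 and 2.91% ± 0.701. Mitochondrially encoded genes made up 4.21, 3.93 and 3.92% in CN and 9.42, 9.03 and 15.8% in NO. For each of these classes the fractions did not overlap (exact permutation p = 0.1, two-sided, the smallest possible). Protein-coding genes outside mitochondria held 11.2% ± 0.222 in CN and 12.8% ± 1.44 in NO, and here the fractions overlapped (exact permutation p = 0.2). Counted outside rRNA, the same genes fell from 43.8% ± 0.76 to 33% ± 3.04, while U3 went from 0.401% ± 0.0506 to 7.6% ± 2.33 (exact permutation p = 0.1 for both).

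**Figure D1:**
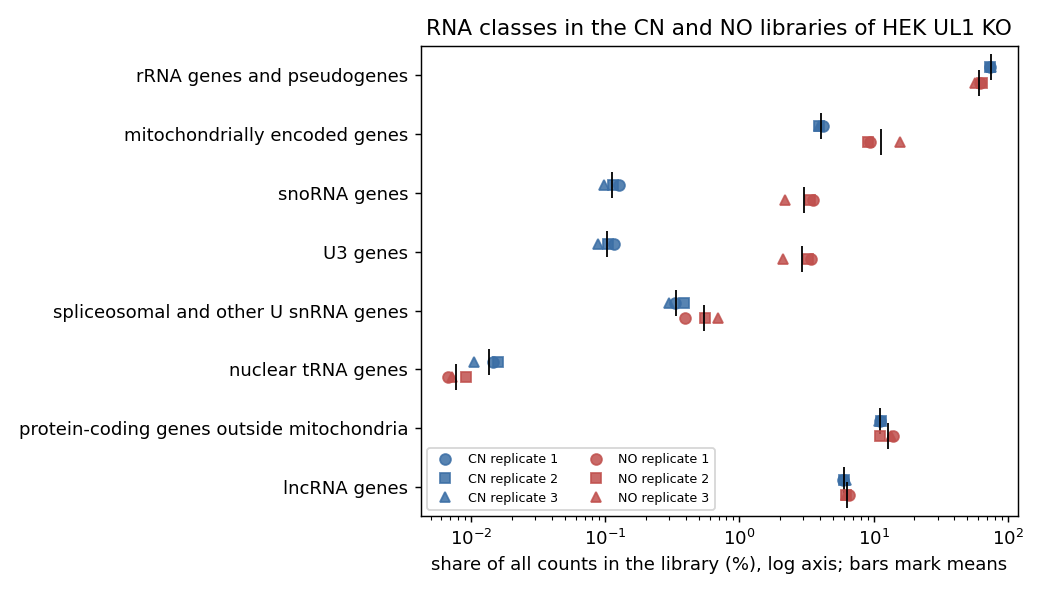
Share of all counts (percent, log axis) taken by 8 RNA classes in each CN (blue) and NO (red) library of HEK UL1 KO, with 1 marker shape per replicate and bars at the means of 3. U3 genes and all snoRNA genes sit at 0.0881 to 0.127% in CN and at 2.1 to 3.52% in NO, while protein-coding genes overlap.

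All 17 snoRNAs of a list drawn up for cleavage of the rRNA precursor were higher in NO. Their median log2 fold change was 4.08, with a range from 3 to 5.12. Whether each member, SNORD13 among them, takes part in cleavage was not tested. U3, which pairs with the 5′ part of the precursor, was the most abundant. SNORD3A had 383, 356 and 289 CPM in CN and 5710, 6870 and 4280 CPM in NO. The lowest NO library thus lay far above the highest CN library, and the fold was 16.4 (log2 4.04 ± 0.33 SE, adjusted p = 1.64e-05). The 5 U3 genes lie between 19061912 and 19190245 of chromosome 17 and are nearly the same, differing from SNORD3A at 1 position in SNORD3B-1, SNORD3B-2 and SNORD3C and at 3 positions in SNORD3D. Their counts therefore cannot be assigned to single copies with confidence.

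U8 (SNORD118), needed for 5.8S and 28S maturation, had 2.12, 1.68 and 1.35 CPM in CN and 15.2, 35 and 15.4 CPM in NO, a fold of 12.7. SNORD13, which pairs with 18S rRNA, had 2.74, 2.04 and 1.23 CPM in CN and 73.2, 67.3 and 40.4 CPM in NO, a fold of 29.9. Its variant entries SNORD13P3 and SNORD13J carried the same counts as each other, 0 in every CN library and 79, 49 and 19 in NO. SNORA73B, an H/ACA snoRNA of the U17 family, had 1.11, 1.22 and 0.777 CPM in CN and 42.8, 30 and 18.5 CPM in NO, a fold of 29.3 (log2 4.87 ± 0.32 SE, adjusted p = 7.15e-06). In none of these did a NO library reach down to CN. Among the U14 genes, SNORD14C rose most (log2 5.12) and SNORD22, the lowest of the list, by 3 on the log2 scale.

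Guide snoRNAs of both families were mostly higher in NO. Of 145 box C/D snoRNAs tested, 129 were higher and 3 lower in NO, with a median log2 fold change of 3.07. Of 112 H/ACA snoRNAs, 96 were higher and 6 lower, with a median of 3.2. Most were so scarce in CN that a filter on low counts was met through NO, and among members with at least 10 counts in every CN library 40 of 46 box C/D and 29 of 38 H/ACA snoRNAs were higher. Of the 12 genes with the largest rise by the naming rule, 5 were box C/D snoRNAs: SNORD135, SNORD42A, SNORD55, SNORD95 and SNORD46. SNORD55 had 0.0574, 0.0762 and 0.0228 CPM in CN and 2.72, 3.4 and 1.63 CPM in NO, so all its NO libraries stood above CN (fold 46.4).

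The members that went the other way were named after their values were seen. SNORD141A (log2 -1.25), SNORD141B (-1.18) and SNORD140 (-0.69) were lower in NO, as were SNORA105A (-1.41), SNORA105B (-1.29), SNORA105C (-1.48), SNORA100 (-1.29), SNORA104 (-0.96) and SNORA103 (-0.53). With total counts SNORD140 and SNORA103 had positive values of 0.05 and 0.23. Their mean level in CN ran from 0.321 CPM for SNORA104, where the fractions overlapped, to 6.73 CPM for SNORD141A. SNORA109, the most abundant H/ACA entry over both fractions, had 26.6, 21.1 and 25.2 CPM in CN and 8.18, 30.8 and 24 CPM in NO, which overlap (adjusted p = 0.587).

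For 200 snoRNAs a tested gene that spans them on the same strand was found in GENCODE and is called the host here. Entries were looked up by name, so some pairs can be wrong. SNORA62, which RefSeq places on chromosome 3, was paired with ZMYM4 through a GENCODE entry that did not match that position. U8 was paired with TMEM107 though it has a gene of its own. The snoRNA and its host usually differed. In 104 of the 200 pairs the snoRNA was higher and the host lower in NO, and both were higher in 31. Of 116 distinct hosts, 18 were higher and 77 lower, with a median log2 fold change of -0.63 against 3.23 for the snoRNAs. The lower calls of hosts are relative to the TMM scaling. Total counts add a median of 0.76 to the log2 fold changes, which exceeds the size of the host median. Hosts that are themselves long non-coding RNAs were divided otherwise, with 10 higher and 3 lower of 21. SNHG3, the host of SNORA73A and SNORA73B, rose by 2.98 on the log2 scale, and SNHG12 (2.57), SNHG19 (2.76) and SNHG8 (2.35) rose too, whereas SNHG16 fell by 1.25. SNHG14 (2.35) and GAS5 (1.38), which were not the host in any of these pairs, also rose. The members of the host gene list other than its most abundant were named after their values were seen. SNHG1 had 9.91, 9.12 and 118 CPM in CN and 30.1, 32.6 and 21 CPM in NO. Its log2 fold change was -0.71 (adjusted p = 0.398) with CN replicate 3 and 1.44 without it.

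**Figure D2:**
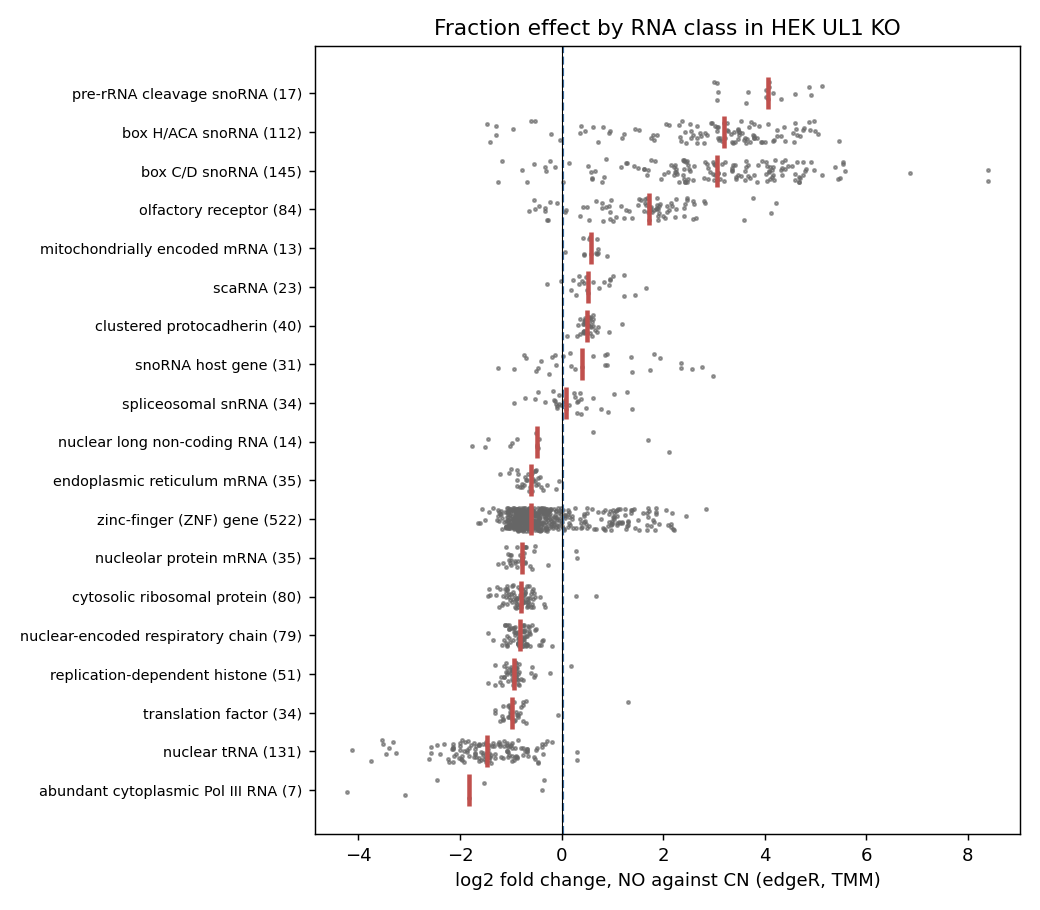
Log2 fold change of NO against CN for each tested member (grey points, number in brackets) of 19 RNA classes in HEK UL1 KO. Red bars are class medians and the dashed line is the median of all 34468 genes (0.03); snoRNA classes lie on the right with medians above 3, and tRNA and cytoplasmic Pol III RNAs on the left with medians of -1.46 and -1.81.

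The RNA subunits of a pair of related enzymes moved apart. RMRP, the RNA of RNase MRP that cuts the rRNA precursor, had 24.2, 23.6 and 27.4 CPM in CN and 75.9, 62.5 and 34.9 CPM in NO, without overlap (fold 2.31, adjusted p = 0.00115). RPPH1, the RNA of RNase P that trims the 5′ ends of tRNA precursors, had 45.8, 46.2 and 48.5 CPM in CN and 5.8, 7.92 and 5.27 CPM in NO. It was 7.41-fold lower in NO (log2 -2.89 ± 0.19 SE, adjusted p = 7.17e-06). Telomerase RNA was too scarce to be tested.

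Short RNAs of RNA polymerase III that work in the cytoplasm were lower in NO. Of 7 tested in that list, 5 were lower and 0 higher, with a median of -1.81. The Y RNAs, bound by the Ro60 protein, fell most. RNY5 had 5.45, 5.14 and 2.92 CPM in CN and 0.174, 0.303 and 0.3 CPM in NO, an 18.8-fold difference with no overlap (adjusted p = 1.29e-05). RNY4 was 8.52-fold and RNY3 5.46-fold lower, and RNY1 fell by 1.81 on the log2 scale. RN7SL1 and RN7SL2, the RNA of the signal recognition particle, overlapped between the fractions (log2 -0.38 and -0.34, adjusted p = 0.123 and 0.183). Of 131 tested nuclear tRNA genes, 100 were lower and 0 higher, median -1.46. Entries with identical counts in all 6 libraries, counted once, gave 91 of 116, and without NO replicate 1 the number was 66 of 126. With total counts 49 of the 131 were lower and 2 higher. Mature tRNAs are short and heavily modified, and their summed level was only 71.7 to 122 CPM in CN and 27.5 to 54.3 CPM in NO.

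Several of the other largest falls were pseudogene entries of these RNAs. The Y RNA pseudogenes RNY3P1 and RNY3P6 fell by 3.06 and 2.48 on the log2 scale and the 7SK pseudogene RN7SKP230 by 2.34. KLHL13, whose span on the X chromosome holds an annotated Y RNA entry, fell by 2.27 and was named after its value was seen. RN7SK, a nuclear RNA that holds the elongation factor P-TEFb inactive, had 475, 586 and 600 CPM in CN and 167, 152 and 134 CPM in NO, a 3.66-fold difference without overlap. SNTB2_1, a copy on an alternate locus, LOC348210, HNRNPA1P52, TRNAV-CAC and FTH1P23 complete the 12 largest falls.

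rRNA took a smaller share of NO, as given above, while the values here are TMM-scaled CPM and not shares. Summed over copies, 18S rRNA had 221310, 249810 and 219460 CPM in CN and 86418, 119510 and 109850 CPM in NO (log2 -1.13 ± 0.89 SE, adjusted p = 0.26). The sums for 28S (log2 -0.97, adjusted p = 0.328) and for entries of the 45S precursor (log2 -1.02, adjusted p = 0.38) also kept CN and NO apart in every library, but did not pass the test. The single copies did, for example RNA18SN5 (log2 -1.25, adjusted p = 0.00608) and RNA45SN1 (log2 -1.02, adjusted p = 0.0271), and DESeq2 also called the 3 sums. The 45S entries span the mature rRNAs, so reads of mature rRNA count towards them and the values are not a measure of the precursor. 5.8S overlapped between the fractions (log2 -0.41, adjusted p = 0.448). With total counts in edgeR the log2 fold changes of 18S, 28S and 45S were smaller, at -0.39, -0.22 and -0.28 (adjusted p = 0.55, 0.754 and 0.705). That of 5.8S was then 0.29 (adjusted p = 0.561). 5S rRNA, made by RNA polymerase III outside the nucleolus, had 69.7, 64.7 and 44.6 CPM in CN and 31.9, 104 and 48.6 CPM in NO, a range in NO that spans all of CN. Its log2 fold change of 0.04 was -0.49 without NO replicate 2, past the threshold in edgeR (adjusted p = 0.0359), and 0.74 with total counts, also past it (adjusted p = 0.0465).

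RNAs of other nuclear bodies differed less. Of 23 scaRNAs, 11 were higher and 0 lower in NO, with a median of 0.53, and SCARNA28 had the highest level among them (3.19, 3.43 and 3.47 CPM in CN, 7.86, 8.55 and 7.17 CPM in NO). Spliceosomal snRNAs stood near the middle of all genes, 5 higher and 1 lower of 34, median 0.08. RNU2-1, the U2 gene, ranged from 418 to 953 CPM in CN and from 181 to 1100 CPM in NO. The members called higher included RNU11 (log2 1.38) and RNU12 (1.04) of the minor spliceosome, and the one lower was RNU6ATAC (-0.94), also of the minor spliceosome.

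Mitochondrially encoded RNAs, which are made and kept within mitochondria, took a larger share of NO, as given above, but gene by gene many missed the threshold. Of 13 mRNAs, 5 were higher, a share no larger than the 40.7% of all genes, and 0 lower, with a median of 0.59, and the 5 were CYTB, ND5, ND2, COX3 and COX1. CYTB had the smallest adjusted p (0.00317), with a log2 fold change of 0.9. Of 22 mitochondrial tRNAs 13 were higher and 0 lower, and of the 2 rRNAs neither was called. RNR2, the large mitochondrial rRNA, had 33000, 32000 and 29000 CPM in CN and 41400, 45300 and 78100 CPM in NO (adjusted p = 0.0934). NO replicate 3 was the highest for RNR2, RNR1 and COX1, and the number of mRNAs called was 1 without CN replicate 1, CN replicate 3 or NO replicate 3, 2 without CN replicate 2, 8 without NO replicate 1 and 10 without NO replicate 2. Their part in the other results was not tested.

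mRNAs of abundant housekeeping proteins were lower in NO relative to the TMM scaling. Of 80 cytosolic ribosomal protein genes, 77 were lower and 1 higher, median -0.81, and with total counts 7 were lower and 2 higher. With only genes of at least 10 counts in every library, scaled anew, 38 of the 80 were lower, median -0.38. RPS6 had 45.6, 48.3 and 48.9 CPM in CN and 20.6, 19.5 and 25.5 CPM in NO, without overlap (log2 -1.12 ± 0.16 SE, adjusted p = 0.00017). Translation factors (32 lower of 34, median -0.99), nuclear-encoded respiratory chain subunits (73 of 79, -0.81), mitochondrial ribosomal proteins (75 of 78, -0.86), glycolytic and cytoskeletal genes (22 of 24, -0.87) and replication-dependent histones (47 of 51, -0.94) had like values. With total counts each of these medians stayed negative, from -0.23 to -0.06, and between 0 and 7 members of each list were lower. Secretory pathway mRNAs, translated at the endoplasmic reticulum, had a smaller shift (29 lower of 35, median -0.59). HSPA5 and HSP90B1 of that list overlapped between the fractions (log2 -0.11 and -0.05, or 0.62 and 0.69 with total counts).

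Of 35 mRNAs of nucleolar proteins 32 were lower, with a median of -0.78, but with total counts 0 were lower and 2 higher. FBL, the methyltransferase of box C/D particles, had 8.88, 8.66 and 9.44 CPM in CN and 3.58, 5.04 and 5.03 CPM in NO (log2 -0.99, adjusted p = 0.000328). NPM1 and NCL, the abundant nucleolar proteins nucleophosmin and nucleolin, fell by 0.73 and 0.54 on the log2 scale, but with total counts their values were 0.01 and 0.19. The transcript of the targeted gene, HNRNPUL1, was lower in NO (log2 -0.92), as were its paralogs HNRNPU (-0.95) and HNRNPUL2 (-1.05). Under total counts none of the 3 passed the test.

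Some members of these lists that were not lower have snoRNA genes within their span. The ribosomal protein genes RPL13A (log2 0.28) and RPL27A (-0.32) and both such translation factors, EIF4A2 (1.31) and EIF4A1 (-0.07, or 0.66 with total counts), contain a tested snoRNA on the same strand, against 21 of the 77 lower ribosomal protein genes and 6 of the 32 lower translation factors. EIF4A2, which contains SNORA81, SNORA4 and SNORD2, rose 2.47-fold (adjusted p = 5.15e-05). NOP56 (log2 0.3) and TAF1D (0.29) of the nucleolar protein list also hold snoRNAs and did not pass. Outside the lists, TMEM107, whose span includes U8, rose by 2.62 on the log2 scale and RCC1, which overlaps SNHG3, by 2.04. These genes were named after their values were seen. Counts of a gene and of an RNA inside its span cannot be told apart without the counting options.

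Long non-coding RNAs that mark other nuclear structures depended on the scaling as a list, with 10 of 14 lower, 2 higher and a median of -0.49 as reported, and 3 lower, 3 higher and a median of 0.26 with total counts. MALAT1, a component of nuclear speckles, had 507, 516 and 452 CPM in CN and 176, 134 and 233 CPM in NO. It was 2.72-fold lower without overlap (adjusted p = 0.000386), and NEAT1, the scaffold of paraspeckles, was 2.84-fold lower (adjusted p = 8.37e-05). MEG3 (log2 2.12) and MIR100HG (1.7) were the higher members.

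**Figure D3:**
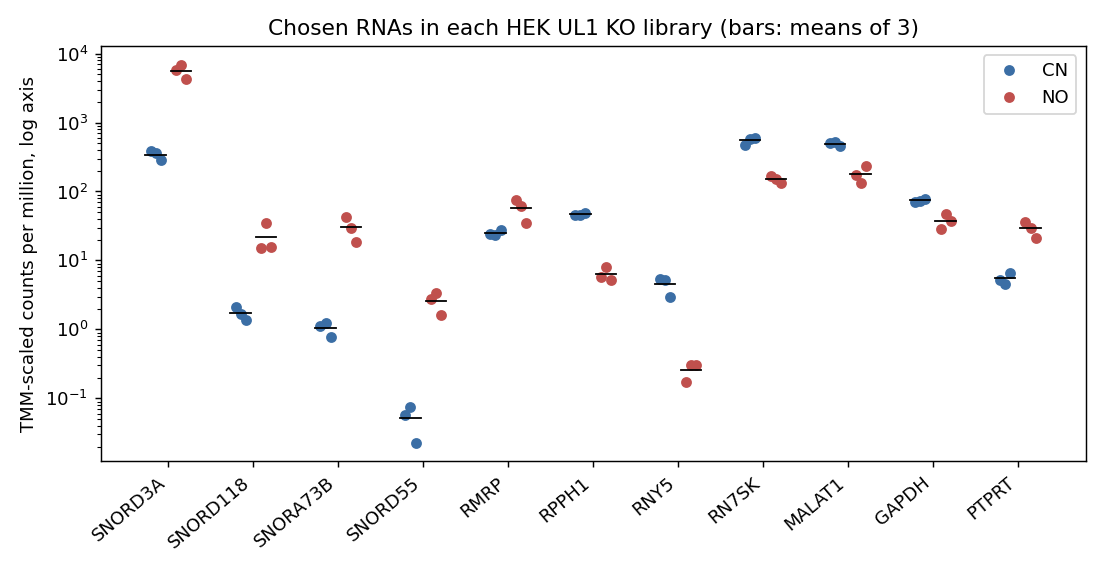
TMM-scaled CPM (log axis) of 11 RNAs in the 3 CN (blue) and 3 NO (red) libraries of HEK UL1 KO, with bars at the means. SNORD3A, SNORD118, SNORA73B, SNORD55, RMRP and PTPRT are higher in every NO library than in any CN library, and RPPH1, RNY5, RN7SK, MALAT1 and GAPDH are lower.

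The rest of the transcriptome differed by gene type, but the types also differed in level. RefSeq types were found by symbol for 94.1% of 31317 tested genes outside alternate loci. Of 8150 annotated lncRNAs, 76.1% were higher and 6.54% lower in NO, with a median of 1.5, whereas of 16696 protein-coding genes 27.9% were higher and 49.9% lower, median -0.45. The median CN level was 0.243 CPM for these lncRNAs and 2.54 CPM for protein-coding genes, so type and level are mixed in these shares. They are also shares of genes and not of counts. lncRNA genes held 6.04% ± 0.118 of all counts in CN and 6.32% ± 0.218 in NO. Of counts outside rRNA they held 23.7% ± 0.724 in CN and 16.3% ± 1.59 in NO, a fall as for protein-coding genes (exact permutation p = 0.1 for both lncRNA shares). At a mean of 4 to 8 CPM 56.7% of lncRNAs and 11.2% of protein-coding genes were higher. At 8 to 16 CPM 24.8% of lncRNAs were higher and 47.7% lower, against 6.63% and 83.1% of protein-coding genes. Pseudogenes resembled protein-coding genes (median -0.56).

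Within each type the median differed by level and by length. Genes of low level passed the filter on counts mainly where NO was high, so their medians are a description of the genes tested and not of all genes of that level. Protein-coding genes under 0.25 CPM on average had a median log2 fold change of 1.55 (71.7% higher), and those of 16 to 32 CPM one of -0.88 (87.8% lower). lncRNAs crossed from positive to negative medians only above 8 CPM, and the 58 of 16 to 32 CPM had a median of -0.67. Where a median crosses 0, and the share of genes lower, depend on the TMM scaling. Total counts add a median of 0.76 to the log2 fold changes. Among protein-coding genes of 4 to 32 CPM, genes of 30 to 100 kb had a median of -0.88 and were lower in 95.6% of 2338 cases. Those of 300 kb to 1 Mb had a median of 0.26 and those over 1 Mb one of 1.31, with 35 of 38 higher and 0 lower. Over all levels the pattern was weaker: protein-coding genes of 30 to 100 kb had a median of -0.51 (54.2% lower and 27.9% higher of 5368), those of 300 kb to 1 Mb 0.04, and those over 1 Mb 0.45, with 38 of 69 higher and 14 lower. PTPRT, a receptor phosphatase gene that spans 1158017 bases of chromosome 20, had 5.17, 4.59 and 6.67 CPM in CN and 36, 29.9 and 21.5 CPM in NO, a 5.33-fold difference without overlap (adjusted p = 2.38e-05). RBFOX1 (4.12-fold), a splicing regulator, and the adhesion genes CDH13 (4.5-fold) and DSCAM (4.72-fold) rose likewise. These 4 long genes were named after their values were seen. By chromosome, protein-coding genes varied little, with medians from -0.58 on chromosome 13 to -0.37 on chromosome 11, and -0.13 on the X chromosome.

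**Figure D4:**
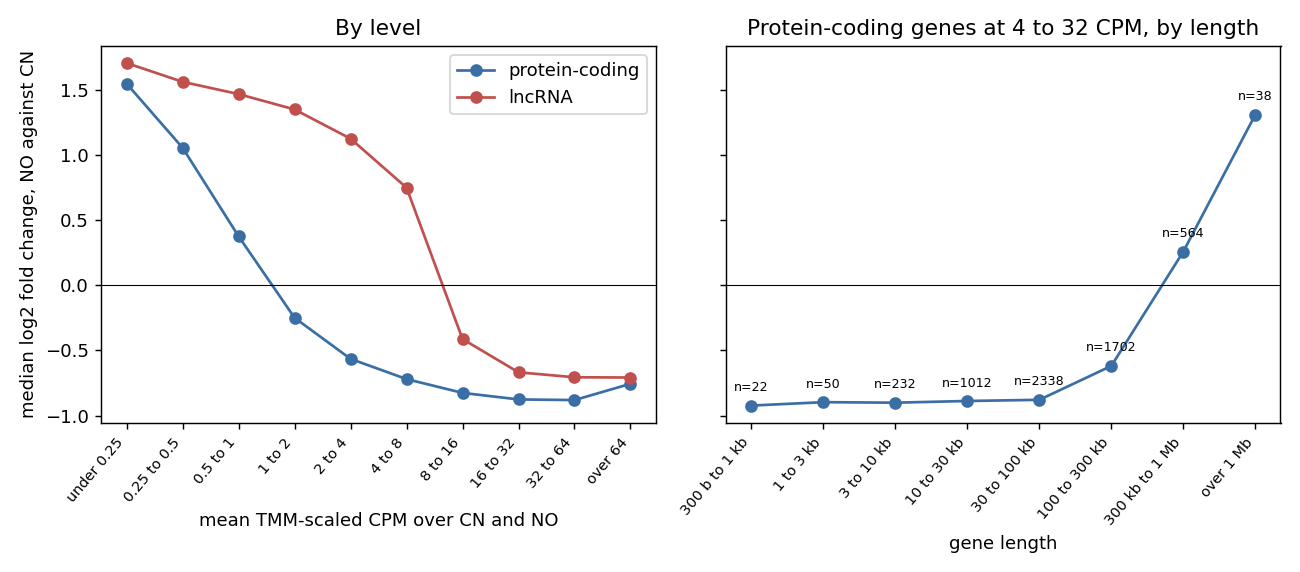
Median log2 fold change of NO against CN, under TMM scaling, by mean CPM (left, protein-coding genes in blue and lncRNAs in red) and by gene length for protein-coding genes of 4 to 32 CPM (right, n above each point). For protein-coding genes medians fall from 1.55 under 0.25 CPM to -0.88 at 16 to 32 CPM, and at 4 to 32 CPM they rise to 1.31 for 38 genes over 1 Mb (0.45 for the 69 of any level).

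Families that are silent in most tissues were tested only in part. Of 865 olfactory receptor genes listed 84 could be tested, of which 63 were higher and 1 lower, median 1.72. Most of these passed the filter through NO. Of those with at least 10 counts in every CN library 11 of 24 were higher, near the 40.7% of all genes, with a median of 0.59. OR3A2 had 1.8, 1.79 and 2.26 CPM in CN and 4.23, 3.89 and 3.15 CPM in NO, and OR4F16, the most abundant member, overlapped. Clustered protocadherins, adhesion molecules of neurons, were higher in 32 of 40 cases and lower in 0, median 0.49. Of 522 ZNF genes, which encode zinc-finger proteins, 69 were higher and 317 lower, median -0.59, whereas with total counts 132 were higher and 7 lower, median 0.17. The markers of other cell types had 6 of 6 tested members higher (median 1.56) at a summed 1.22 to 1.55 CPM in CN and 3.81 to 4.22 CPM in NO, but only 3 of the 10 markers had at least 10 counts in every CN library, while HEK293T markers had 6 of 9 lower. Among 14 tested immediate early genes 12 were lower and 0 higher. With total counts 2 of these 14 were lower and 0 higher, and of the 9 HEK293T markers 2 were lower and 3 higher.

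The other 7 of the 12 largest rises were no snoRNAs, and at least 5 of these, SLC5A10, MYO15A, FBXW10, LOC101929141 and EPN2-AS1, lie within 1 Mb of the U3 genes on chromosome 17. Their counts were uneven between the NO libraries. SLC5A10 had 59, 476 and 586 counts in CN and 136554, 182322 and 9953 in NO. MYO15A, which encodes a myosin of inner ear hair cells, had 76, 60 and 61 counts in CN and 79284, 841 and 102 in NO. FBXW10 had 36649 counts in NO replicate 1 but 126 and 50 in the others, and ULK2, a kinase gene of autophagy 581 kb from the U3 genes, had 124817 against 195 and 217. So NO replicate 1 carries most of the counts of MYO15A, FBXW10 and ULK2, while SLC5A10 was highest in NO replicate 2. Without NO replicate 1 the log2 fold change of ULK2, named after its values were seen, went from 5.54 to -0.75. The cause was not tested.

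Of 64 tested genes in that window, U3 aside, 15 (23.4%) had a NO library at least 10-fold above the highest CN library. Elsewhere the share was 0.617% of 34379 tested genes, or 0.284% of 34117 without snoRNA symbols. The window was chosen after the data were seen. SLC5A10, MYO15A, FBXW10, LOC101929141 and EPN2-AS1, named above for their rise, are among the 15, so the share is a description only. Summed, the 15 genes had 649040, 242132 and 40653 counts in NO and 3001 to 4152 in CN, next to U3 counts of 2811637, 1264426 and 780427 in NO. In HEK WT the region was uneven too. MYO15A had 19683, 127 and 15364 counts in NO there and SLC5A10 159463, 2681 and 74713, whereas ULK2 had 127, 128 and 173. With the genes of the window left out, 26248 genes were called. The last 2 of the 12, LOC105371579 and LOC107984602, each had most counts in a single NO library, 29 and 23.1 CPM against at most 0.779 in the others.

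The fraction effect was then set beside that of HEK WT, where 9355 of 29340 tested genes (31.9%) were higher in NO and 6139 (20.9%) lower, 52.8% in all. Across the 28777 genes tested in both genotypes the log2 fold changes had r = 0.925 and rho = 0.912, a description over genes, which are not independent replicates. Of 14459 genes called in both, 14423 had the same direction and 36 the opposite one. Box C/D snoRNAs had a median of 3.07 in HEK UL1 KO and 3.75 in HEK WT, and H/ACA snoRNAs 3.2 and 3.52. For the mitochondrial mRNAs the medians were 0.59 and 1.69, with all 13 called in HEK WT. No snoRNA, mitochondrial, tRNA or ribosomal protein gene passed the test of the difference, and neither did the 5 rRNA sums. A difference that misses the threshold does not show that the genotypes are alike, and the error of single values was wide: for SNORD3A the difference was -0.36 ± 0.49 (SE) on the log2 scale.

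**Figure D5:**
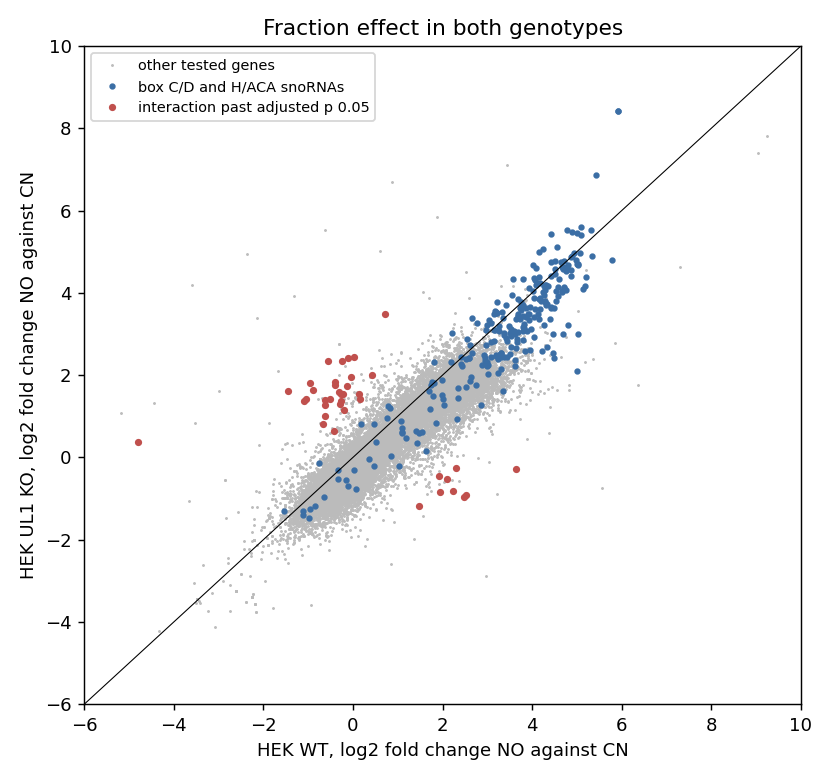
Log2 fold change of NO against CN in HEK WT (x axis) and HEK UL1 KO (y axis) for genes tested in both, with the line of equal values. Most snoRNAs (blue) lie in the upper right, with a few near or below 0, and genes past the interaction test (red) lie off the line.

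The effect of fraction differed between the genotypes for 43 of 37806 genes (0.114%, edgeR interaction test, adjusted p under 0.05), with 32 larger and 11 smaller in HEK UL1 KO. At an unadjusted p under 0.05 there were 1254. The number was 84 with DESeq2, 20 with at least 10 counts in every library, and 0 with scaling to total counts in edgeR. In all 32 the CN level was lower in HEK UL1 KO than in HEK WT, and in none of the 11, although the CN values enter both measures. OXCT1, an enzyme of ketone body use, had 0.641, 0.744 and 0.92 CPM of all counts in CN and 5.35, 3.91 and 3.85 in NO of HEK UL1 KO. In HEK WT it had 8.17, 8.98 and 6.98 in CN and 5.89, 6.21 and 11.7 in NO. With TMM scaling within each genotype the log2 fold change was 1.77 in HEK UL1 KO and -0.41 in HEK WT. The interaction fit, scaled over all 12 libraries, gave a difference of 2.46 ± 0.27 (SE, adjusted p = 0.000499). FBXL7, of an E3 ubiquitin ligase, went the same way (difference 2.05). SFRP1, a secreted antagonist of Wnt signalling, was the reverse: its CN level was 3.28, 3.95 and 3.5 in HEK UL1 KO and 0.227, 0.262 and 0.144 in HEK WT, and the log2 fold change was -0.52 (0.23 with total counts) against 2.09. Beside it stood NRG3, ZNF544, ZNF718 and GAPDHS. Under TMM scaling all had a positive fold change in HEK WT, where their CN level was low, and a negative one in HEK UL1 KO. GAPDHS overlapped between the fractions in HEK UL1 KO. So did NRG3 in CPM of all counts, with 59.4, 62.5 and 54.5 in CN and 63.9, 41 and 65.4 in NO. In NO of HEK WT replicate 3 was the highest for ZNF544 (0.478, 0.442 and 2.44) and NRG3 (11, 7.77 and 34).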

How the data were processed

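The authors sequenced libraries made with the CORALL Total RNA-Seq kit in single reads. Per the labels they used FastQC 0.11.4, cutadapt 3.7, STAR 2.7.8, GRCh38, featureCounts and DESeq2, and the paper's methods say that reads with several alignments were allowed. Counting options, strand setting and annotation version are not given in the sources used here. The authors deposited raw counts per gene, one table per fraction. The tables list 61163 genes, and 0 columns were unmatched to a sample. rRNA copies, U3 genes, tRNA genes and other near-identical entries can share reads.

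The tables were joined on gene and NO was tested against CN in the 6 HEK UL1 KO libraries with edgeR 4.0.16 (R 4.3.3) by its quasi-likelihood F test with TMM scaling, filterByExpr (minimum count 10, minimum total 15) and Benjamini-Hochberg adjustment, called at an adjusted p under 0.05. HEK WT was fitted alike, and the interaction of genotype and fraction was tested over all 12 libraries. p values measure the spread between these libraries, each group having 3. Shares of counts were compared by exact permutation tests (numpy 2.4.6, pandas 2.3.3, figures with matplotlib 3.10.9). Alternatives were DESeq2 1.42.0, other scalings and filters, a replicate block, all 12 libraries in one fit and leaving out each library. Counting entries with identical counts once, keeping only list members with at least 10 counts in every CN library and leaving out genes near U3 were chosen after the data were seen. Libraries of 1 fraction differed beyond counting error (chi-square per gene at least 17.2).

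The comparison and the gene lists were chosen with earlier results of these data known, and no list was given a test of its own. Lists hold only entries without an alternate-locus suffix. TRNP1 and TRNT1, nuclear genes caught by the pattern for mitochondrial tRNAs, were taken out of that list after they were seen. Named were the 12 largest rises and falls among called genes without overlap and a mean of at least 50 counts, the 3 most abundant members of each list, all members of short lists of small RNAs, a few fixed genes and the 5 genes with the smallest interaction p in each direction. Not all are discussed. Types, positions and sequences came from RefSeq (GRCh38.p14), GENCODE and the GRCh38 genome. On simulated counts for the comparison of NO with CN over 31100 genes, edgeR found 139 of 200 genes given a log2 change of 1, and 10.3% of its calls were false. It found 200 of 200 given a log2 change of 2. DESeq2 found 157 of the 200 with a log2 change of 1, and 17.4% of its calls were false. For the interaction edgeR found 178 of 200 given a log2 change of 2, with 7.29% false. Only these 200 genes, drawn from those above 1 CPM, were changed. In the data 76.3% of genes were called and many were scarcer, so these rates do not carry over to the comparison. A few items are not reported here.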

Additional observations from a re-analysis of the deposited data

Results flagged for a closer look

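In the interaction test of edgeR 43 genes had a fraction effect that depended on genotype, and the 5 genes with the smallest p in each direction are given as values. The difference of the log2 fold change, HEK UL1 KO minus HEK WT, was 2.46 for OXCT1, 3.05 for LOC105379062, 2.88 for LOC105379618, 2.74 for LINC01036 and 2.05 for FBXL7. In the other direction it was -2.31 for SFRP1, -3.13 for ZNF544, -2.35 for ZNF718, -2.7 for NRG3 and -3.17 for GAPDHS.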

How the results depend on the processing

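Requiring at least 10 counts in every library left 13163 called genes (7943 higher, 5220 lower) of 23719 tested. Requiring a log2 fold change of at least 1 in size left 15852, of which 3678 were lower, and total counts left 825 lower. For the lists, at least 10 counts in every library gave 41 of 46 box C/D and 31 of 36 H/ACA snoRNAs higher, 23 of 58 tRNA genes and 38 of 80 ribosomal protein genes lower, and 13 mitochondrial mRNAs and 15 of 22 olfactory receptor genes higher. Members with at least 10 counts in every CN library gave 40 of 46, 29 of 38 and, for olfactory receptors, 11 of 24. Total counts gave 49 tRNA genes and 7 ribosomal protein genes lower and 13 mitochondrial mRNAs higher. That last number was 3 with DESeq2 size factors, 8 with DESeq2 and with TMM without rRNA and mitochondrial genes, 2 with all 12 libraries in one fit, 1 without a filter and 1 to 10 when a library was left out. For tRNA genes leaving out a library gave 66 to 119, the lowest without NO replicate 1. DESeq2 gave -1.07, -1.01 and -1.18 for 45S, 28S and 18S, now past the threshold. Total counts gave -0.28, -0.22 and -0.39 for them and 0.29 for 5.8S, none past the threshold. 5S was 0.74 and past it with total counts, and ran from -0.49, without NO replicate 2 and also past the threshold (adjusted p = 0.0359), to 0.36 when a library was left out. The interaction count of 43 was 84 with DESeq2, 20 with at least 10 counts in every library, 104 without a filter, and 0 with total counts in edgeR, where 458 genes had an unadjusted p under 0.05. It ran from 25 to 57 when a library was left out, with 27 without CN replicate 1, 26 without CN replicate 2 and 28 without NO replicate 1 of HEK UL1 KO and 25 without CN replicate 1 of HEK WT. With total counts the sign turned for CDH2 (0.15), EIF4A1 (0.66), HSP90B1 (0.69), HSPA5 (0.62), NCL (0.19), NPM1 (0.01), OR4F16 (0.53), SFRP1 (0.23), SNORA103 (0.23) and SNORD140 (0.05). When a library was left out, SNHG1 ran from -1.27 to 1.44, positive only without CN replicate 3, and ULK2 from -0.75, without NO replicate 1, to 6.23. The cause was not tested.

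The labels do not say whether same-numbered CN and NO libraries come from the same culture. The deviations of same-numbered CN and NO libraries had correlations of -0.0488, -0.176 and -0.201. Those of libraries with different numbers ran from -0.00403 to 0.196. With few libraries in each fraction and more spread within NO than within CN, these values cannot show whether the samples are paired. A replicate block gave 16 genes for the interaction and 1 mitochondrial mRNA, and moved no other count of calls in the comparisons by over 1.5 times.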
